A study of Mus musculus with 12 samples.

Results

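The 33 genes described here encode parts of the epithelial cell: keratins, E-cadherin, claudins, desmosomal proteins, membrane proteases with their inhibitors, and the regulators that keep the epithelial programme on. They were chosen by symbol, and selected on their measured levels in cultured mouse brain endothelial cells (BECs). The choice was made because the levels of most of them followed single culture pools and not the genotype or the environment. Of the 33, 31 were listed in the table of normoxia/normoglycemia (NX/NG), 32 in that of oxygen-glucose deprivation with reoxygenation (OGD-R), and 31 in both, among 32419 genes in either table. Ehf was listed in the OGD-R table alone and Ovol2 in neither. The levels below are therefore a description, and no p-value is given for a member.

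Primary BECs were grown from brain microvessels of 8-week-old mice, either Cort+/+ (wild type) or Cort-/- (lacking cortistatin, on a C57BL/6J background), and were enriched with puromycin, which spares cells that pump the drug out. Cultures stayed under NX/NG for 24 h, or went through 4 h of oxygen-glucose deprivation and then 20 h of reoxygenation. The labels call these environments NM and OGD and give every sample, the normoxic ones included, a mouse model of ischemic stroke (MCAO) as disease state. Each replicate was pooled from 3 mice of a genotype. Of 12 samples, 10 had a column: Cort-/- replicates 1 and 2 and Cort+/+ replicates 1, 2 and 3 under NX/NG, and Cort-/- replicates 1 and 3 and Cort+/+ replicates 1, 2 and 3 after OGD-R.

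Levels are in RPKM, the reads on a gene per kilobase of its length, scaled to the size of the library, as the authors deposited them. The reads behind them could be recovered, and each library held 12386048 to 12390428 reads on genes. These totals are nearly equal and lie under the mean number of read pairs that the study reported. The sources used here do not say why. Cort had 0 reads in the 4 Cort-/- libraries and at most 2 in a Cort+/+ library, so it checks the labels only weakly. The 16 endothelial markers summed to between 1257 and 1791 RPKM, with Cdh5 (VE-cadherin) at 443 to 740 RPKM. Markers of the brain barrier state in this list parted. Slco1c1 and Mfsd2a lay at 0.0156 to 0.0983 and 0.200 to 0.560 RPKM. Slc2a1 lay at 30.5 to 48.5 RPKM, Abcb1a at 7.80 to 11.5 RPKM and Cldn5 (claudin-5) at 105 to 136 RPKM. Ribosomal Rn18s-rs5 reads made up 0.0775% of Cort+/+ OGD-R replicate 1 and 0.0951% of Cort-/- OGD-R replicate 3, against 7.64% to 15.8% elsewhere. Neither of these poor libraries is among those in which most members were highest, but after OGD-R they came next for many members.

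In simple epithelia, KRT8 and KRT18 pair into the intermediate filaments of the cell, E-cadherin (Cdh1) holds neighbouring cells together at adherens junctions, and claudins set which ions and molecules pass between them. Brain endothelium seals its junctions with VE-cadherin and claudin-5 instead, and is not known to rely on E-cadherin or EpCAM. Epithelial genes share regulators: ESRP proteins set epithelial splicing, GRHL and OVOL factors hold the programme on, and SNAIL and ZEB factors repress it by binding E-box sequences in promoters such as that of Cdh1. In bulk RNA, few cells with a high level and many cells with a low level cannot be told apart.

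The promoters of 4 members are shown for the letters that such repressors bind. Krt8 and Epcam stood furthest above the other libraries among members with a promoter entry and 1 RPKM or more in both environments, and Krt18 and Cldn4 were, with Krt8, the most abundant of the members that were highest in Cort+/+ NX/NG replicate 2, by their level in that library. The sequences are RefSeq's for GRCm38.p6, from 250 bases before to 50 bases after the annotated start, 5′ to 3′, with the E-box letters CACCTG and their reverse complement CAGGTG in capitals.
Krt8 (chr15:102004293-102004592, minus strand): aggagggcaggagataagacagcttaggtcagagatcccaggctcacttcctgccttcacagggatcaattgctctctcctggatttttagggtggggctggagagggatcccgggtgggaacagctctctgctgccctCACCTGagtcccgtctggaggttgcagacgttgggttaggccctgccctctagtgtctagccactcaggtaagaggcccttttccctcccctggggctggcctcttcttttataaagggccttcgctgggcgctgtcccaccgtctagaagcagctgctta
Krt18 (chr15:102027966-102028265, plus strand): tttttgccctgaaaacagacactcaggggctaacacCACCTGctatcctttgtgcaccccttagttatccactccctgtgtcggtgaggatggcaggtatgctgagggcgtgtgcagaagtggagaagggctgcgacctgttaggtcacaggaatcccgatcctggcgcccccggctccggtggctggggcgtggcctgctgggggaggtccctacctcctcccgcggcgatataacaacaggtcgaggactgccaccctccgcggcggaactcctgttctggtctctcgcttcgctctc
Epcam (chr17:87635729-87636028, plus strand): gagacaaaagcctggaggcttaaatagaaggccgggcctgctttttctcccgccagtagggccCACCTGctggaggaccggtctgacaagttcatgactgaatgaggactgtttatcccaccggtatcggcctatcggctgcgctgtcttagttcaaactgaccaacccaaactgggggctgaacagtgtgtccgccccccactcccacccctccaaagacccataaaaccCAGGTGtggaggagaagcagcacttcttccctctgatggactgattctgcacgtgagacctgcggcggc
Cldn4 (chr5:134946885-134947184, minus strand): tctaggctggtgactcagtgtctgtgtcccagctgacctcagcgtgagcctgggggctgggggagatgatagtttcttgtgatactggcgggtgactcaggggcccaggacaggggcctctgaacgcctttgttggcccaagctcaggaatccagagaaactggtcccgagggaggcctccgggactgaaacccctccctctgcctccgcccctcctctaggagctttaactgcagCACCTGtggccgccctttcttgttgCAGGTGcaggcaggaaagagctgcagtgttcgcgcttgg

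Of the 33 members, 20 had a RefSeq promoter entry. The E-box letters, searched on both strands, occurred in 15 of these 20 (75%), against 22.6% of 27025 genes with an entry. Epcam and Cldn4 each held 2 copies, Krt8 and Krt18 1 copy. The letters AACCNGTT, the core of the site that grainyhead-type factors bind, occurred in 2 of the 20, Cgn and Rab25, and in 2.35% of all genes. TATAAA occurred in 1 member, Krt8, and in 15.7% of all genes, and GGAA, the core bound by ETS factors such as ELF3 and EHF, in 19 of the 20 and 96.5% of all genes. These searches count letters in this window and say nothing on binding.

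Most members were highest in a pair of libraries, Cort-/- OGD-R replicate 1 and Cort+/+ NX/NG replicate 2, the libraries that the choice of members was based on. Of the 31 members in both tables, 23 were highest in both of them, where 2.75% of 27321 genes were. The summed level of the 23 was 71.9 RPKM in Cort+/+ NX/NG replicate 2 and 51.3 RPKM in Cort-/- OGD-R replicate 1. Cort-/- NX/NG replicate 2 followed with 20.5 RPKM, and the other 7 libraries lay between 4.34 and 12.3 RPKM. The 8 members that did not follow were Krt19, Esrp2, Ovol1, Spint2, Dsg2, Dsc2, Lad1 and Wfdc2.

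**Figure D1:**
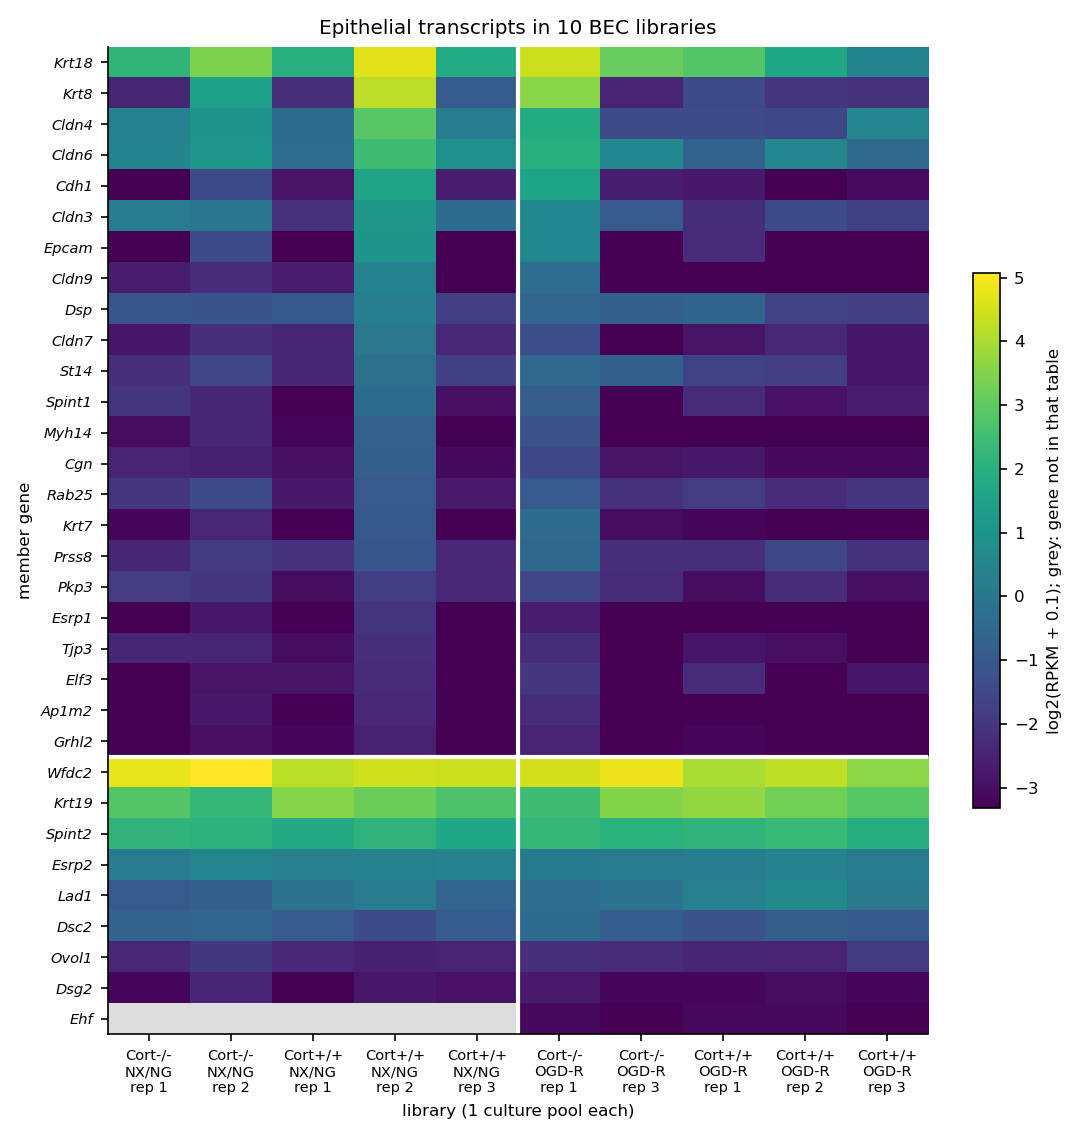
Each row is a member and each column 1 library, coloured by log2(RPKM + 0.1); the white lines part the environments and the 23 members that were highest in both libraries from the others, and grey marks a gene not listed in that table. Cort-/- OGD-R replicate 1 and Cort+/+ NX/NG replicate 2 are brighter than their neighbours in the upper rows, while Wfdc2, Krt19 and Spint2 in the lower rows are bright in every library.

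Krt8, the type II keratin of simple epithelia, was at 0.0827 and 2.57 RPKM in Cort-/- NX/NG replicates 1 and 2, and at 0.125, 18.7 and 0.443 RPKM in Cort+/+ NX/NG replicates 1, 2 and 3. After OGD-R it was at 11.9 and 0.0749 RPKM in Cort-/- replicates 1 and 3, and at 0.260, 0.138 and 0.128 RPKM in Cort+/+ replicates 1, 2 and 3. One library in each environment stood far above the rest and the genotypes overlapped. The mean of the Cort+/+ NX/NG group, 6.43 ± 10.7 RPKM (SD, n = 3), was smaller than its own spread. In reads, Krt8 had 482 in Cort+/+ NX/NG replicate 2 and 64 in the next library, a ratio of RPKM of 7.28 with an exact interval (Clopper-Pearson, 95%, counting error only) of 5.60 to 9.61. In Cort-/- OGD-R replicate 1 it had 273 reads against 7, a ratio of 45.7 (21.9 to 115).

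Krt18, its type I partner, was at 4.40 and 10.5 RPKM in the Cort-/- NX/NG replicates and at 3.80, 26.0 and 3.38 RPKM in the Cort+/+ ones. After OGD-R the values were 20.9 and 8.67 RPKM in Cort-/- replicates 1 and 3 and 7.04, 3.13 and 1.28 RPKM in Cort+/+ replicates 1, 2 and 3. The same libraries were highest, but here every library held reads, and the 2 highest exceeded the next by ratios of 2.47 (2.09 to 2.94) and 2.41 (2.00 to 2.91). The ratio of the Krt18 to the Krt8 level was 1.39 in Cort+/+ NX/NG replicate 2, 4.09 in Cort-/- NX/NG replicate 2 and 1.76 in Cort-/- OGD-R replicate 1. In the other 7 libraries it ran from 7.63 to 116, so Krt18 was measured there with little Krt8.

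The other keratins parted. Krt7, found in ductal and glandular epithelia, had 37 reads in Cort+/+ NX/NG replicate 2, 55 in Cort-/- OGD-R replicate 1, a further 8 in Cort-/- NX/NG replicate 2, and at most 2 elsewhere. Krt19, a keratin with no dedicated partner, was at 7.03 and 4.67 RPKM in the Cort-/- NX/NG replicates, 11.6, 9.07 and 6.59 RPKM in the Cort+/+ ones, 5.38 and 11.4 RPKM in Cort-/- OGD-R replicates 1 and 3, and 13.0, 9.71 and 7.40 RPKM in Cort+/+ OGD-R replicates 1, 2 and 3. Cort-/- OGD-R replicate 1 was the lowest of its table for Krt19 and the highest for Krt8.

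**Figure D2:**
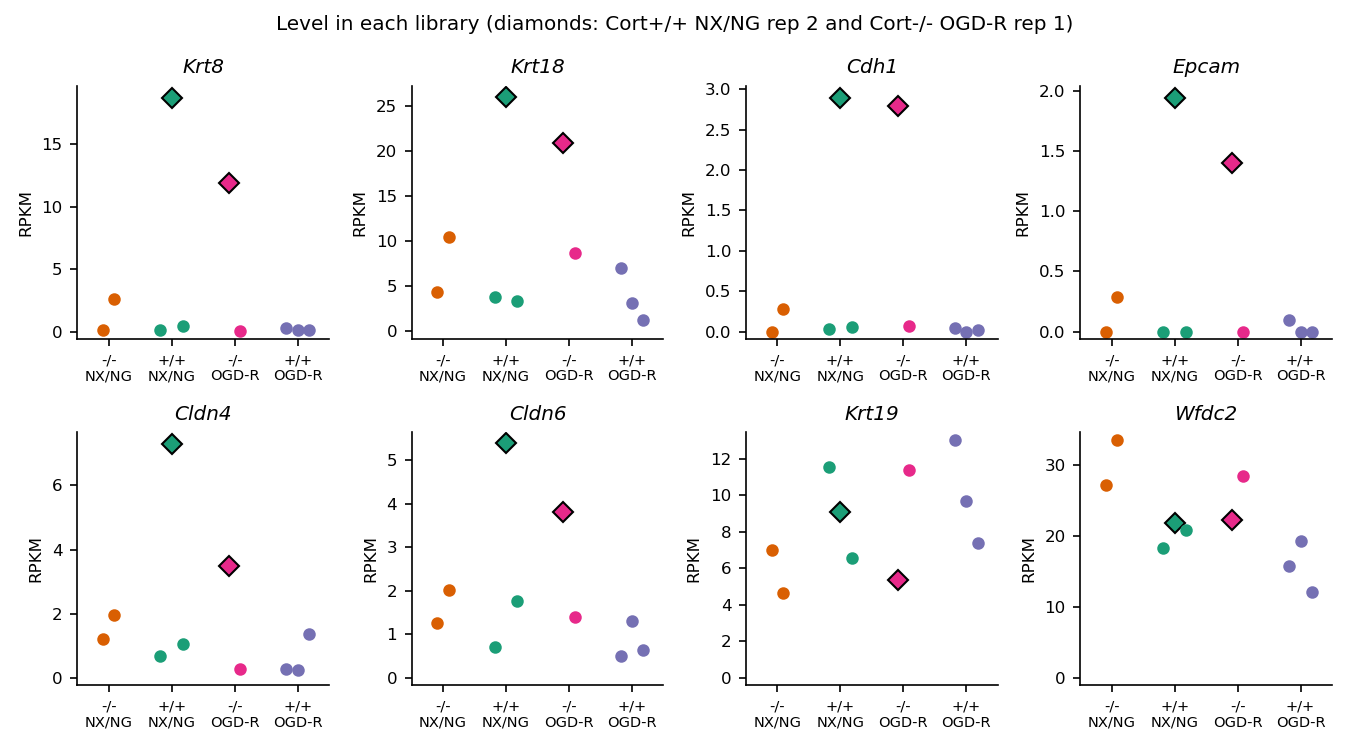
RPKM of 8 members by group on linear axes from 0, 1 point per library, with diamonds for Cort-/- OGD-R replicate 1 and Cort+/+ NX/NG replicate 2. The diamonds lie above all other points for Krt8, Krt18, Cdh1, Epcam, Cldn4 and Cldn6, and among them for Krt19 and Wfdc2.

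Cdh1, E-cadherin, was at 0 and 0.275 RPKM in the Cort-/- NX/NG replicates and at 0.0357, 2.89 and 0.0569 RPKM in the Cort+/+ ones. After OGD-R it was at 2.80 and 0.0641 RPKM in Cort-/- replicates 1 and 3 and at 0.0478, 0 and 0.0183 RPKM in Cort+/+ replicates 1, 2 and 3. The 2 highest libraries held 174 and 150 reads, Cort-/- NX/NG replicate 2 held 16, and the other 7 held 0 to 4. Epcam, an adhesion molecule of most epithelia, was at 0.287 RPKM in Cort-/- NX/NG replicate 2, 1.94 RPKM in Cort+/+ NX/NG replicate 2, 0.0995 RPKM in Cort+/+ OGD-R replicate 1 and 1.40 RPKM in Cort-/- OGD-R replicate 1. The other 6 libraries had no Epcam read, which allows up to 3 reads each.

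Among the claudins, Cldn4 and Cldn6, which tighten paracellular seals in epithelia, were measured in every library. Cldn4 was at 1.20 and 1.95 RPKM in the Cort-/- NX/NG replicates, 0.674, 7.29 and 1.05 RPKM in the Cort+/+ ones, 3.47 and 0.282 RPKM in Cort-/- OGD-R replicates 1 and 3, and 0.281, 0.248 and 1.38 RPKM in Cort+/+ OGD-R replicates 1, 2 and 3. Cldn6 was at 1.27 and 2.01 RPKM, then 0.711, 5.39 and 1.76 RPKM under NX/NG, and at 3.81 and 1.41 RPKM, then 0.508, 1.31 and 0.632 RPKM after OGD-R, in the same order. Both were highest in the same 2 libraries. Cldn3, at 2.06 and 1.42 RPKM there, reached 1.03 RPKM at most elsewhere. Cldn7 and Cldn9 had 23 reads each in Cort+/+ NX/NG replicate 2, 7 and 12 in Cort-/- OGD-R replicate 1, and at most 3 in any other library.

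The plaque and sorting proteins of the apical junction were low throughout. Cingulin (Cgn) and the non-muscle myosin Myh14 reached 0.478 and 0.502 RPKM in Cort+/+ NX/NG replicate 2 and 0.254 and 0.328 RPKM in Cort-/- OGD-R replicate 1, with at most 0.0865 RPKM elsewhere. Tjp3 (ZO-3), the recycling GTPase Rab25 and the epithelial adaptor subunit Ap1m2 were highest in the same 2 libraries with 4 to 9 reads. For the desmosomal linker Dsp, Cort+/+ NX/NG replicate 2 was at 1.11 RPKM and the other 9 libraries at 0.191 to 0.574 RPKM, and the lead of Cort-/- OGD-R replicate 1 over the next library was a ratio of 1.04 (0.735 to 1.48). Dsg2, Dsc2 and the anchoring protein Lad1 did not follow, and for plakophilin Pkp3 the lead in NX/NG was 9 reads against 8.

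The surface proteases and their inhibitors parted as well. Matriptase (St14) was at 0.757 and 0.625 RPKM in the 2 highest libraries, but at 0.480 RPKM also in Cort-/- OGD-R replicate 3, and its inhibitor Spint1 reached 0.688 and 0.462 RPKM with at most 0.146 RPKM elsewhere. The related inhibitor Spint2 lay between 3.16 and 5.10 RPKM in all 10 libraries, and Esrp2 between 0.962 and 1.32 RPKM, with no library apart. The splicing regulator Esrp1 was seen in 3 libraries alone, with 12 reads in Cort+/+ NX/NG replicate 2 and 4 each in Cort-/- OGD-R replicate 1 and Cort-/- NX/NG replicate 2. Grhl2, which holds Cdh1 and claudin genes on in epithelia, had 8 reads in each of the 2 highest libraries and 3 in Cort-/- NX/NG replicate 2. Elf3 had 3 and 4 reads, Ehf at most 1 and Ovol1 3 to 7, too few to rank libraries.

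Many of the members were scarce. Under NX/NG 18 of 31 reached 1 RPKM in no library, and after OGD-R 20 of 32. Of the 23 that were highest in both libraries, the interval of the ratio over the next library lay above 1 for 15 in Cort+/+ NX/NG replicate 2 and for 11 in Cort-/- OGD-R replicate 1, where 4 more had no read in any other library. It lay above 1 in both for 10: Krt7, Krt8, Krt18, Cdh1, Epcam, Cldn3, Cldn4, Cldn6, Cgn and Spint1. The members were chosen for their levels in these libraries, and the intervals hold counting error only. These counts therefore describe how many reads stand behind the choice, and nothing more is read from them.

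Another library, which the choice of members does not name, shared part of the pattern. Cort-/- NX/NG replicate 2 was second in its table for 16 of the 23 members, against 22.3% of the 752 genes, members included, that were highest in both libraries. Krt8 had 64 reads there against 10 in the library below it. For some of the 16 the place rests on 1 read, as for Cldn7 (3 against 2), Cldn9 (2 against 1) and Prss8 (4 against 3). The level in Cort-/- NX/NG replicate 2 was lower than that in Cort+/+ NX/NG replicate 2 by a median ratio of 3.10 over the 23 (1.24 to 11.1). Between the 2 highest libraries the ratio of NX/NG to OGD-R was 1.39 in the median (0.601 to 2.93), on tables that the authors scaled separately. After OGD-R the next library was Cort-/- replicate 3 for 11 of the 23, Cort+/+ replicate 1 for 9, Cort+/+ replicate 2 for 2 and Cort+/+ replicate 3 for 1. Cort-/- replicate 3 and Cort+/+ replicate 1 are the libraries poor in ribosomal reads. There the 23 summed to 12.3 and 9.78 RPKM, against 6.13 and 4.34 RPKM in Cort+/+ replicates 2 and 3. Whether this order follows the ribosomal share was not tested.

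Neither of the 2 highest libraries shared its level with the library of the same genotype and number in the other environment. For Krt8, Cort+/+ replicate 2 was at 18.7 RPKM under NX/NG and 0.138 RPKM after OGD-R, and Cort-/- replicate 1 at 0.0827 and 11.9 RPKM. Within NX/NG, replicate 2 of both genotypes stood above the other libraries for Krt8. It was at 18.7 RPKM in Cort+/+ and 2.57 RPKM in Cort-/-, against 0.0827 to 0.443 RPKM in the others. The labels do not say whether a number marks the same pool of mice in both environments.

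At a ratio of 4 on RPKM + 0.1 over the highest other library, among genes with 1 RPKM or more in some library, Cort+/+ NX/NG replicate 2 held 4 of 13 members (Krt8, Cdh1, Epcam and Cldn9; 0.298% of 15076 genes) and Cort-/- OGD-R replicate 1 held 3 of 12 (Krt8, Cdh1 and Epcam; 0.244% of 15195 genes). Cdh1, Epcam and Cldn9 under NX/NG, and Krt8, Cdh1 and Epcam after OGD-R, reached 1 RPKM in that library alone, and the choice of members used these values, so nothing is read from the counts against the shares. With all genes above 0 the counts were 5 of 31 (0.621% of all genes), which added Cldn7, and 6 of 32 (0.571%), which added Cldn9, Krt7 and Myh14. Among the genes with 1 RPKM or more, nearest to the limit of 4 were Epcam at 5.28 inside and Cldn4 at 3.61 outside in NX/NG, and Epcam at 7.51 inside and Cldn3 at 3.00 outside after OGD-R. The other 8 libraries held 21 to 50 such genes each and no member. The lists of the 2 libraries, 45 and 37 genes, shared 5, which were 11.1% and 13.5% of them: Krt8, Cdh1, Epcam, Gm36026 and Mir6930.

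The last pair are no members and were named after their values were seen. Gm36026, a long non-coding RNA that overlaps Krt8 by 271 bases on the opposite strand in GENCODE vM21, had 42 and 20 reads in the 2 libraries, 3 in Cort-/- NX/NG replicate 2 and 0 in the other 7. The library kit marks strand, but the sources used here do not say whether the counting used it, so reads on the stretch they share cannot be assigned to either gene. Mir6930 had 1 read in each of the 2 libraries and none elsewhere, and its short length made 1 read worth over 1 RPKM.

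**Figure D3:**
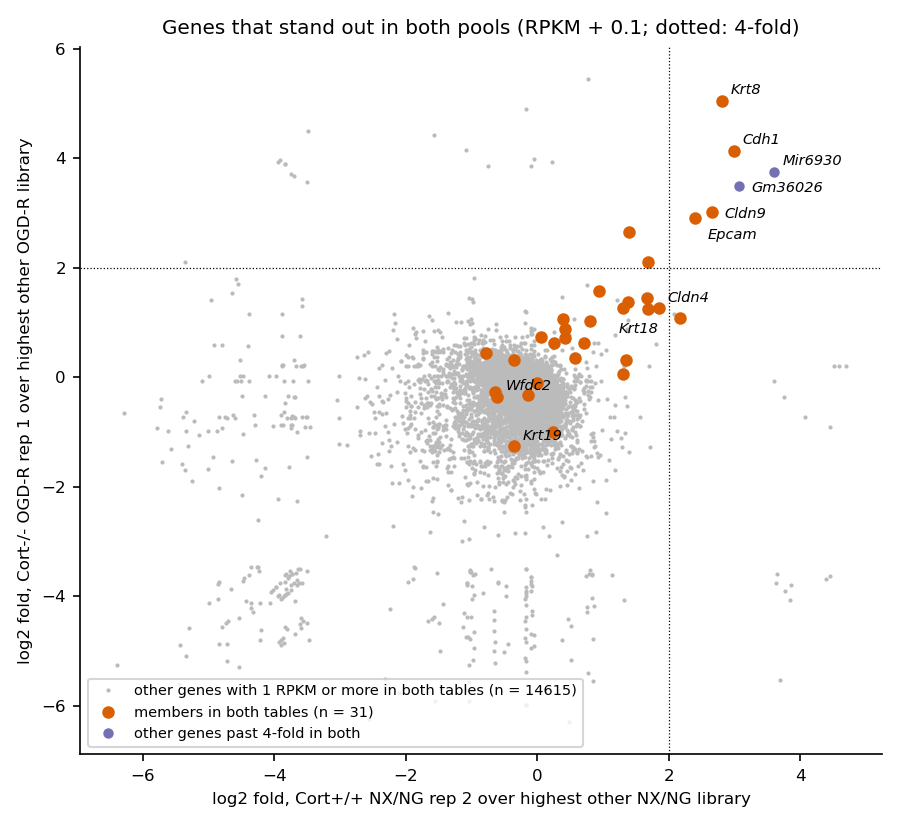
Each point is a gene: the x axis gives log2 of the ratio of Cort+/+ NX/NG replicate 2 to the highest other NX/NG library, the y axis that of Cort-/- OGD-R replicate 1 to the highest other OGD-R library, both on RPKM + 0.1, with dotted lines at a ratio of 4. Grey points are other genes with 1 RPKM or more in both tables, and the upper right corner holds Krt8, Cdh1, Epcam and Cldn9 (below 1 RPKM after OGD-R) with Gm36026 and Mir6930.

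Over the 10 libraries, scaled together by the median ratio over 27321 shared genes, the log2 level of single members was compared with the mean of the members, to which each contributes. Pearson's r was 0.981 for Epcam, 0.979 for Cdh1, 0.971 for Krt8, 0.889 for Cldn6, 0.880 for Krt18 and 0.833 for Cldn4, against -0.38 for Krt19, -0.084 for Lad1, 0.147 for Esrp2 and 0.339 for Wfdc2. Among 14819 genes that are no members, the 20 nearest to that mean had r between 0.779 and 0.988. Among them were Gm36026, Mir6930, an unnamed Ensembl gene, Gm13456, Mal, Rpl7-ps7, Gm17907, Gm20406, Cpsf7, Gm10222, Fbxo45, Zfp608, Srd5a1, Osbpl3, Mpzl3, Arv1, Npnt, Serpinb1a and Mtap. With 10 points of which 2 stand apart, such an r rests on those 2. Mal, a proteolipid of apical transport, was at 1.53 and 1.07 RPKM in the 2 libraries and at 0.271 to 0.554 RPKM in the other 8. Npnt, an integrin ligand of epithelial basement membranes, was at 5.16 and 3.83 RPKM against 1.28 to 2.79 RPKM.

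Epithelial genes outside the members were read from 4 lists. Of 52 in both tables, 14 were highest in both libraries, beside 2.75% of 27321 genes. Among the 14 were Marveld3, Crb3, Pard6b and Cdh3 of 16 junction and polarity genes, Krt17, Krt80 and Ppl of 11 keratin and desmosome genes, and Myo5b, Prom2, Erbb3, Macc1, S100a14 and Cblc of 18 membrane and secretory genes. Of 7 further regulators, among them Klf5 and Grhl1, 0 were highest in both. In 10 of the 14, Cort-/- NX/NG replicate 2 was second. Krt17 was at 4.42 RPKM in Cort+/+ NX/NG replicate 2, 0.550 RPKM in Cort-/- OGD-R replicate 1, and 0.457 RPKM in Cort-/- NX/NG replicate 2, with 0.0559 RPKM at most elsewhere. Junction genes that endothelium also uses did not follow: F11r lay at 58.6 to 86.8 RPKM and Tjp1 at 54.4 to 96.3 RPKM.

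Markers of other cell types were set beside the members, and their part in the levels was not tested. At the share of 2.75% over all genes, lists as short as these would mostly hold no such gene, so a count of 0 says little. Of 16 endothelial markers, 0 were highest in both libraries, and of 9 mesenchymal genes 0, with the repressors Zeb1 at 11.2 to 14.9 RPKM and Snai1 at 7.77 to 12.4 RPKM in every library. Of 15 choroid plexus genes, 0 followed: the defining marker Ttr lay at 0.212 to 1.17 RPKM, Kl at 0 to 0.00965 RPKM and Otx2 at 0 to 0.139 RPKM, while Clic6 was at 12.4 to 19.1 RPKM in all libraries. Of 4 ependymal genes, 1 followed, Foxj1, at 0.812 RPKM in Cort+/+ NX/NG replicate 2, 0.293 RPKM in Cort-/- OGD-R replicate 1 and 0.150 RPKM in Cort-/- NX/NG replicate 2, and at most 0.0957 RPKM elsewhere. Of 7 pituitary genes, 2 followed, among them Pitx1 (0.487 and 0.257 RPKM), with the hormone genes Prl at 0 to 0.0605 RPKM and Pomc at 0.0556 to 0.497 RPKM.

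Of 4 mesothelial genes, 2 followed. Msln, mesothelin, was at 2.77 and 1.54 RPKM in the Cort-/- NX/NG replicates, 2.21, 7.38 and 1.02 RPKM in the Cort+/+ ones, 8.99 and 4.31 RPKM in Cort-/- OGD-R replicates 1 and 3, and 1.93, 1.12 and 0.655 RPKM in Cort+/+ OGD-R replicates 1, 2 and 3. Here Cort-/- NX/NG replicate 2 was not second. The other, Muc16, lay at 0.00324 RPKM or less, and Upk3b at 0.0462 RPKM or less. Of 7 basal keratinocyte genes, 1 followed, Ly6d (0.307 and 0.229 RPKM), while Krt14 reached 0.134 RPKM at most. Of 6 neural genes 1 followed, Mbp, at 0.0889 to 0.207 RPKM in all libraries. None of 10 organ epithelium transcription factors, 5 arachnoid barrier genes, 6 pericyte, 4 smooth muscle, 6 fibroblast or 4 leukocyte and microglia genes did. The smooth muscle list summed to 995 RPKM in Cort-/- OGD-R replicate 1, its lowest value, and to 1777 RPKM in Cort+/+ NX/NG replicate 2, its highest. The fibroblast list summed to 83.6 to 342 RPKM, the pericyte list to 7.59 to 22.9 RPKM and the leukocyte and microglia list to 1.32 to 2.06 RPKM.

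Not every list summed to more in the 2 libraries. Outside the members, the keratin and desmosome list summed to 60.8 RPKM in Cort+/+ NX/NG replicate 2, its highest value, but to 35.1 RPKM in Cort-/- OGD-R replicate 1, the lowest after OGD-R. The junction and polarity list had the opposite order, with 196 RPKM, the lowest under NX/NG, and 282 RPKM, the highest after OGD-R. The membrane and secretory list summed to 22.3 and 18.4 RPKM in the 2 libraries and the list of regulators to 2.33 and 1.71 RPKM, in both cases the highest under NX/NG but not after OGD-R. The mesothelial list summed to 7.46 RPKM in Cort+/+ NX/NG replicate 2 and 9.26 RPKM in Cort-/- OGD-R replicate 1, against 0.856 to 4.52 RPKM elsewhere, nearly all of it Msln. The pituitary list summed to 1.69 and 1.12 RPKM there and to 0.333 to 1.04 RPKM elsewhere, and the ependymal list to 3.85 and 3.74 RPKM against 2.21 to 3.35 RPKM. The choroid plexus list summed to 26.6 and 27.8 RPKM, within its range of 21.9 to 36.9 RPKM over the other libraries.

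**Figure D4:**
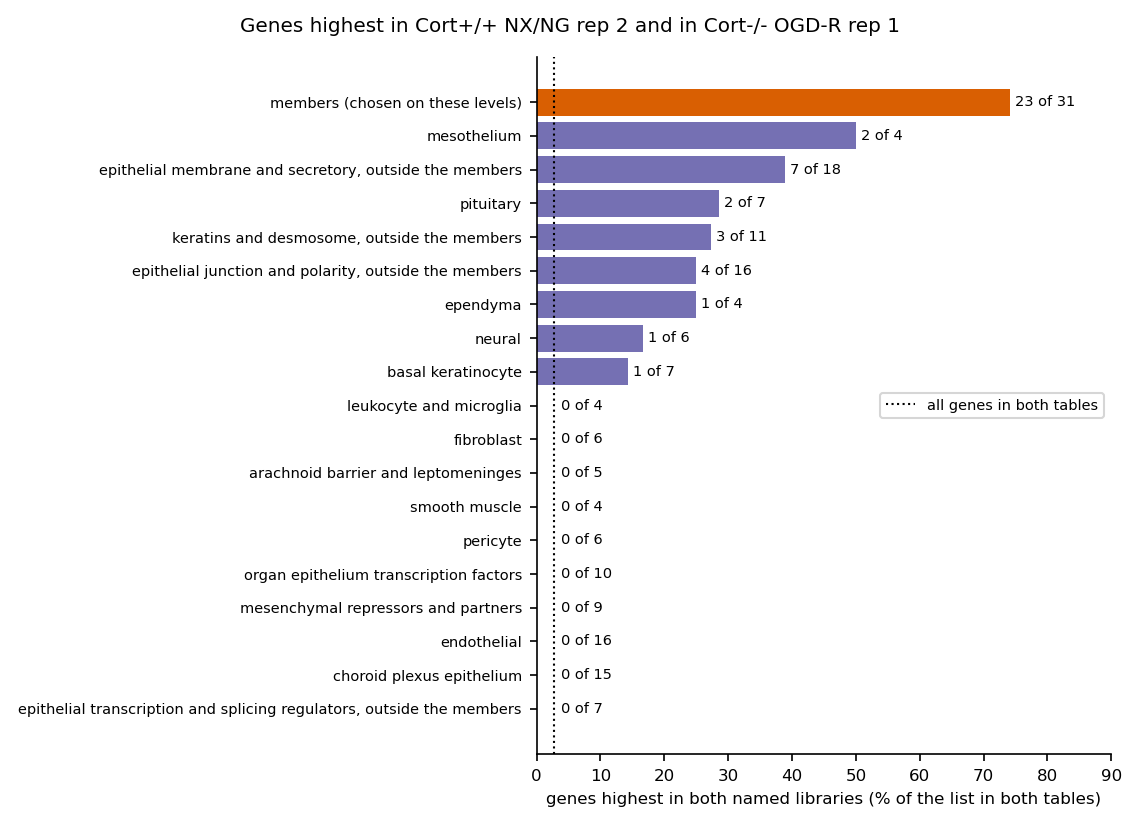
Bars give, for each marker list, the share of its genes in both tables that were highest in Cort-/- OGD-R replicate 1 as well as in Cort+/+ NX/NG replicate 2, with the counts beside them and a dotted line at 2.75%, the share of all genes. The members, chosen on these levels, stand at 23 of 31, the mesothelial list at 2 of 4, the 3 epithelial lists with any such gene at 4 of 16 to 7 of 18, and the endothelial and choroid plexus lists at 0.

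The study compared the genotypes within each environment and, with its own pipeline, reported differentially expressed genes in both. It named Krt7, Krt8, Krt18, Cdh1 and Epcam as raised in Cort-/- BECs after OGD-R only. The study called these genes a signature of choroid plexus epithelium, a possible contaminant of such isolates. It proposed that cortistatin may favour an endothelial over an epithelial-like fate. Neither reading was tested here. Among other members, it reported Cldn4, Cldn6, Cldn9 and Myh14 as raised during OGD-R, and Cgn as overexpressed, without cortistatin. The members were read in the same comparison with a separate fit, whose calls are not those of the study. Under NX/NG limma called 0 of 29965 genes at an FDR of at most 0.05, so 0% in each direction, and 0 of 31 members. Before adjustment, 2513 genes had a p under 0.05, and limma-voom on the recovered reads called 1 gene and no member. After OGD-R limma called 0 of 29775 genes, again 0% in each direction, and 0 of 32 members, with 1019 genes at an unadjusted p under 0.05 and 0 called by limma-voom. The median log2 fold change of Cort-/- over Cort+/+ was -0.20 over the members and -0.014 over all genes under NX/NG, and 0.56 over the members and -0.0089 over all genes after OGD-R.

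The medians changed sign when single libraries were left out. Without Cort+/+ replicate 2, the members' median under NX/NG was 0.41, 17 of 31 members changed sign, and 26 of 31 lay above 0. Without Cort-/- replicate 1 it was 0.15, with 19 of 31 above 0 and 10 of 31 changing sign. After OGD-R, the median without Cort-/- replicate 1 was -0.049, and 14 of the 28 members with a value above 0 in the remaining libraries changed sign. For Krt8 the log2 fold change after OGD-R was 2.43 ± 1.73 (SE) with both Cort-/- libraries and -0.62 ± 0.38 without replicate 1. For Cdh1 it was 2.52 ± 1.20 and 0.45 ± 0.28. With Cort-/- replicate 1 alone in its group, which is then assumed to vary like Cort+/+, limma called 6 of 32 members higher in Cort-/- (Krt7, Krt8, Cdh1, Cldn9, Myh14 and Ap1m2), beside 2.15% of 28856 genes, and limma-voom called none (0% of these genes). The members were chosen for their levels in that library, so these calls restate the choice.

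**Figure D5:**
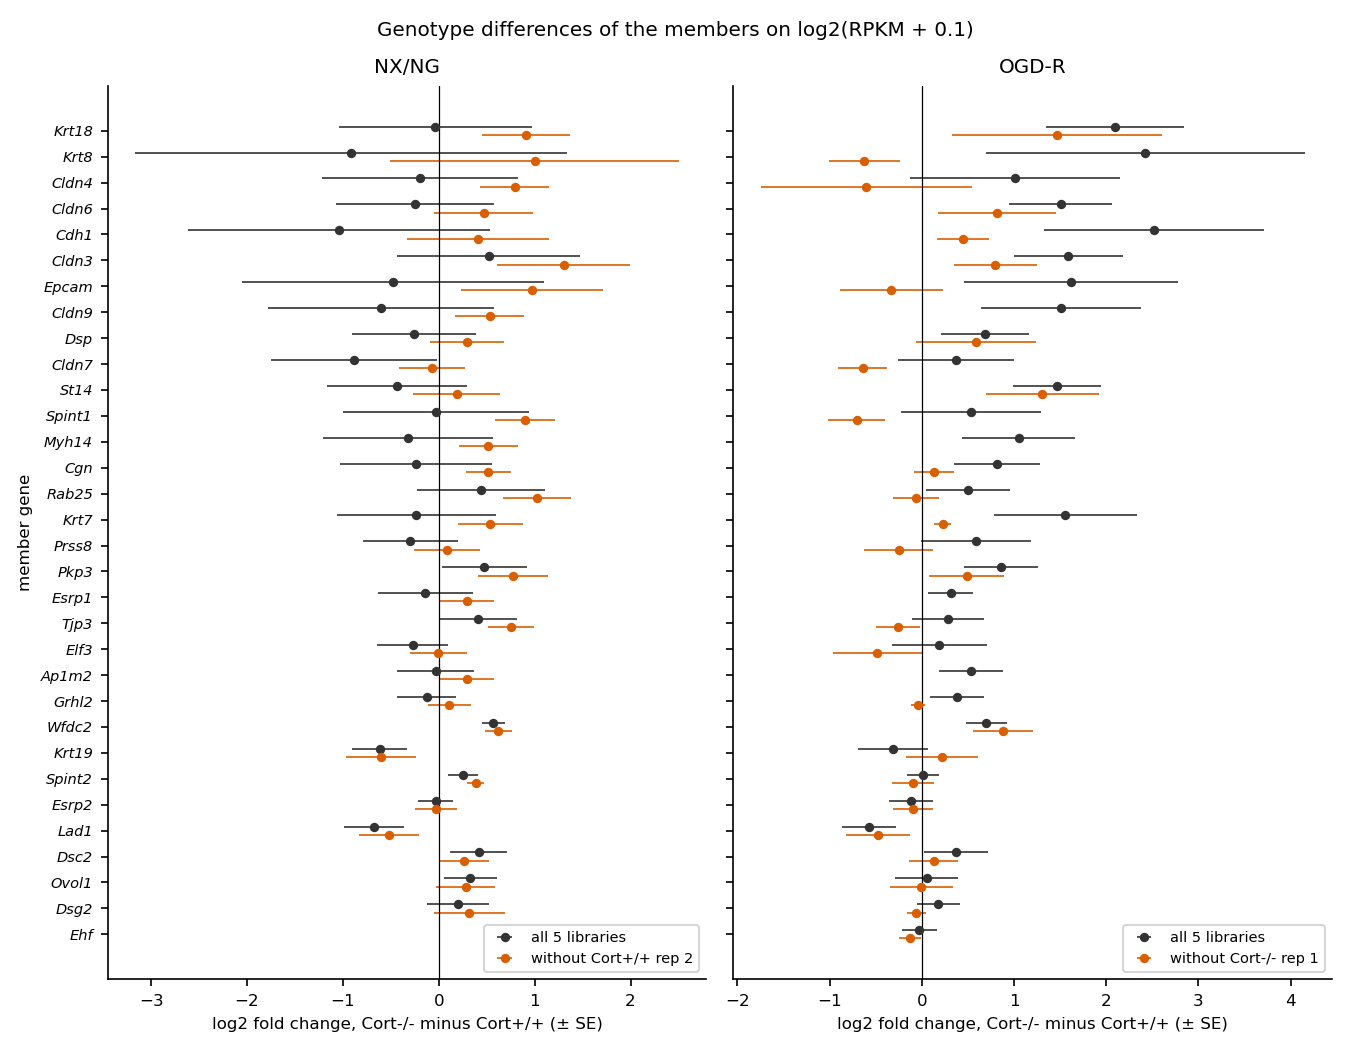
Log2 fold change (Cort-/- minus Cort+/+, on log2(RPKM + 0.1), ± SE) of each member under NX/NG on the left and after OGD-R on the right, in black over all 5 libraries and in orange without the library that stood apart. Krt8 moves from below to above 0 on the left and from above to below 0 on the right, while Wfdc2 stays above 0 and Lad1 below 0 in both.

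Both Cort-/- libraries lay above all Cort+/+ libraries for 2 of 31 members under NX/NG (Dsc2 and Wfdc2, beside 10.8% of all genes) and for 8 of 32 after OGD-R (Krt7, Krt18, Cdh1, Cldn3, Cldn6, St14, Pkp3 and Wfdc2, beside 7.54%). The opposite held for Lad1 alone in each environment, beside 12.3% and 6.71% of all genes. For Cdh1 after OGD-R that lead was 4 reads in Cort-/- replicate 3 against 3 in Cort+/+ replicate 1. The rule used these levels, so nothing is read from the counts.

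Wfdc2, a secreted protein of glandular and airway epithelia, had the highest level of the members in 9 of 10 libraries, Krt18 exceeding it in Cort+/+ NX/NG replicate 2, and was highest in neither of the 2 libraries. It was at 27.3 and 33.5 RPKM in Cort-/- and 18.4, 21.9 and 20.9 RPKM in Cort+/+ under NX/NG, and at 22.3 and 28.5 RPKM in Cort-/- and 15.8, 19.4 and 12.1 RPKM in Cort+/+ after OGD-R. The genotypes did not overlap in either environment, with log2 fold changes of 0.57 ± 0.12 and 0.70 ± 0.22 (SE), and limma called it in neither. Lad1, a filament protein of the anchoring complex, had the opposite order, with log2 fold changes of -0.68 ± 0.31 and -0.58 ± 0.29, at 0.405 to 1.51 RPKM.

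Some members share sequence or ground with other genes. Of the 40-base stretches of Krt8 transcripts in GENCODE vM21, 29.1% recur in the pseudogene Krt8-ps, which had at most 1 read after OGD-R and was not listed under NX/NG. For Cgn 19.4% recur elsewhere, most of them in the pseudogene BC021767 with at most 4 reads. Elf3 lies opposite Gm26642, which had up to 532 reads in a library, and Prss8 overlaps Kat8 by 122 bases, with up to 213 reads on Kat8, so the few reads on Elf3 and Prss8 are uncertain. The same holds for Esrp2, which overlaps Nfatc3 by 219 bases with up to 1180 reads, and for Tjp3, which overlaps Apba3 by 40 bases with up to 397 reads. Cdh1, Epcam and Cldn4 transcripts shared at most 0.109% of such stretches with another gene.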

How the data were processed

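RNA-seq of 10 BEC libraries was read from 2 deposited tables, 1 per environment. The authors ran reanalyzerGSE without removing genes of low expression, and deposited RPKM for each gene and library with the gene length. The labels' processing notes name edgeR, and aligner, genome build and annotation are not given in the sources used here. Kit and read length differ between the labels and the study's methods. The fold changes, p-values and group means of the authors' comparisons and 10 columns of expression categories were not used.

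RPKM times length lay within 0.05 of a whole number of reads for at least 99.9958% of values above 0 in each library. Genotypes were compared in each environment with limma 3.58.1 in R 4.3.3 (lmFit and eBayes with a trend) on log2(RPKM + 0.1) over genes above 0, 2 Cort-/- against 3 Cort+/+ libraries, two-sided, with Benjamini-Hochberg adjustment and calls at an FDR of at most 0.05. On simulated data this fit called more unchanged genes than its FDR allows, while limma-voom called none, so calls made by limma alone are uncertain. Members, marker lists (18) and tests were chosen with earlier results of these data known. Genes were named by membership, by their level or ratio within a list, and as the 20 nearest to the members' mean. Replicates are pools of 3 mice. Nothing says that a number pairs libraries, and the deviations of same-numbered libraries correlated at -0.013 and -0.034 under NX/NG and at -0.33 and -0.23 after OGD-R. With 2 Cort-/- libraries in an environment, their deviations mirror each other, so these correlations cannot decide whether libraries are paired. Alternatives were a pseudocount of 1, a minimum of 1 RPKM in 2 libraries, quantile normalization, limma-voom, a replicate block and each library left out. Limma-voom with a Cort-/- library left out was added after seeing the data. A few genes of the lists are not reported here.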

Additional observations from a re-analysis of the deposited data

How the results depend on the processing

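Neither genotype comparison called a gene in the fit reported, and the count of genes called under NX/NG became 20 with a pseudocount of 1 and 1 with limma-voom. Leaving out 1 library gave 0 to 683 called genes under NX/NG and 0 to 710 after OGD-R, the counts with 1 Cort-/- library left being the high ones (543 and 683 without replicate 1 and 2 under NX/NG, 710 and 626 without replicate 1 and 3 after OGD-R), and limma-voom gave 0 in these 4 cases. No member was called in these settings but for 0 to 6 after OGD-R, the 6 without Cort-/- replicate 3. The members' median log2 fold change, -0.20 under NX/NG, ran from -0.52 to 0.41 when 1 library was left out (-0.52 without Cort+/+ replicate 3, -0.42 without Cort+/+ replicate 1, -0.33 without Cort-/- replicate 2, 0.15 without Cort-/- replicate 1, 0.41 without Cort+/+ replicate 2) and was 0.58 with limma-voom without Cort-/- replicate 1, and the 0.56 after OGD-R from -0.049 to 1.15, and to 2.25 with limma-voom without Cort-/- replicate 3. With the replicate number as a block (replicate block) 0 genes and 0 members were called in either environment, and the medians were -0.52 and 0.53. No source used here says that a number pairs libraries. The correlations of same-numbered libraries cannot decide it, since the deviations of 2 Cort-/- libraries mirror each other.

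Of the members at least 4-fold above the next library, 4 in Cort+/+ NX/NG replicate 2 became 8 at a ratio of 2 and 1 with a pseudocount of 1. The 3 in Cort-/- OGD-R replicate 1 became 7, 1, and 6 with all genes above 0. Of all genes, 45 became 89, 1, 186 with all genes above 0, and 24 with the tables scaled together, and 37 became 83, 2 and 170. The single gene left in Cort+/+ NX/NG replicate 2 with a pseudocount of 1 was a member, Krt8. Of the 20 genes nearest to the members' mean, 2 were among the 20 nearest by Spearman's rho, 13 with a pseudocount of 1, 4 without Cort+/+ NX/NG replicate 2 and 11 without Cort-/- OGD-R replicate 1. With 12386048 to 12390428 recovered reads per library, which need not be the depth sequenced, few reads stand behind many members. Their order over libraries is not resolved by these reads.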
